A study of Mus musculus with 8 samples.

Results

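The glomerulus is the capillary tuft that filters blood in the kidney. Its filter has a fenestrated endothelium on the blood side, a basement membrane of laminin and type IV collagen, and podocytes, epithelial cells whose interlocking foot processes are bridged by slit diaphragms. Mesangial cells hold the capillaries together, and the filtrate drains into the proximal tubule. The data described here are the expression profiles of glomeruli from 4 wild-type mice (Cd151+/+, both copies of the tetraspanin gene Cd151 intact), which are 4 of the 8 arrays of a study that also profiled Cd151-/- mice. The mice were FVB/N males at 3 weeks of age, with no treatment named. Glomeruli were loaded with magnetic beads by perfusion, freed from the kidney by collagenase and collected on a magnet, and 1 isolate per mouse was hybridised to an array of 25697 probes. An isolate pools every cell that came down with the glomeruli, so fewer cells of a type and less RNA per cell cannot be told apart. The question was which genes and cell types dominate this baseline and which genes differ from mouse to mouse.

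A probe was kept where its detection p-value, the chance of so bright a signal among negative control beads, was 0.05 or lower on all 4 arrays. This held for 9946 of 25697 probes (38.7%), and so for 7627 of 17850 genes. Single arrays detected 11291, 11341, 11800 and 12270 probes in mice 1 to 4, and 11852 probes were detected on no array. The threshold fell between Hp and Ss18l1, each with a highest detection p-value of 0.0489, and AU040576 and Bach1, each at 0.0501. These 4 probes had mean signals of 5.72, 5.77, 5.43 and 5.78 on the log2 scale, and the brightness of probes just inside and just outside overlapped. All levels below are log2 normalised signals, in the order of mice 1 to 4 where 4 values are given. The signal of a probe depends on its sequence as well as on its transcript, so a rank here is a rank of brightness and not of transcript number.

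The arrays fell into a dimmer and a brighter pair before normalisation. The background was 65.2 and 59.0 in mice 1 and 2 but 123 and 129 in mice 3 and 4, and the brightest probe read 35289, 32225, 61487 and 63790. After normalisation 114 kept probes (1.15%) differed by more than 1 log2 unit between mice 1 and 2, 511 (5.14%) between mice 3 and 4, and 1363 to 1537 (13.7% to 15.5%) between a mouse of one pair and a mouse of the other. The labels name no chip, scan or preparation batch, so the pair of arrays and the pair of mice cannot be told apart. The list means in each mouse, or differences inside each pair, are therefore given beside counts of genes that differ between the pairs.

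Among the brightest genes were products of the podocyte, products that most cells make in bulk and a haemoglobin gene. Cdkn1c, a cell cycle inhibitor that mature podocytes express strongly, ranked first at 15.32, 15.40, 15.49 and 15.32. Mfge8, a secreted glycoprotein that bridges dying cells to phagocytes, ranked second at 15.40, 15.32, 15.32 and 15.16. Hba-a1, an alpha chain of haemoglobin, read 15.49, 15.49, 15.18 and 14.89. Normalisation gives probes of the same rank the same value, so equal values here are equal ranks: Hba-a1 was the brightest probe in mice 1 and 2, Cdkn1c in mouse 3 and Eef1a1 in mouse 4. Before normalisation 9 and 15 probes read above 50000 in mice 3 and 4 and 0 in mice 1 and 2; whether a ceiling of the scanner compressed the leading ranks there was not tested. The leading 10 also held Ubb and its near-identical copy Ubb-ps (whose probes may read the same transcripts), the elongation factor Eef1a1, the extracellular glutathione peroxidase Gpx3, the ATP synthase subunit Atp5b and the matricellular protein Ccn2. Itm2b, Rplp1, Rpl41, Fth1, Pttg1ip, Tmbim6, Rps9, Rpl9, Rpl38, Sparc, Gpx1, Sgk1, Uaca, Mtch1 and Cox6b1 were also among the first 25. By function, 5 of the 25 encode ribosomal proteins, 2 are subunits of the respiratory chain or ATP synthase, 3 bind iron or break down peroxide (Fth1, a ferritin chain, and the peroxidases Gpx1 and Gpx3), and Ccn2 and Sparc are secreted into the matrix.

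**Figure D1:**
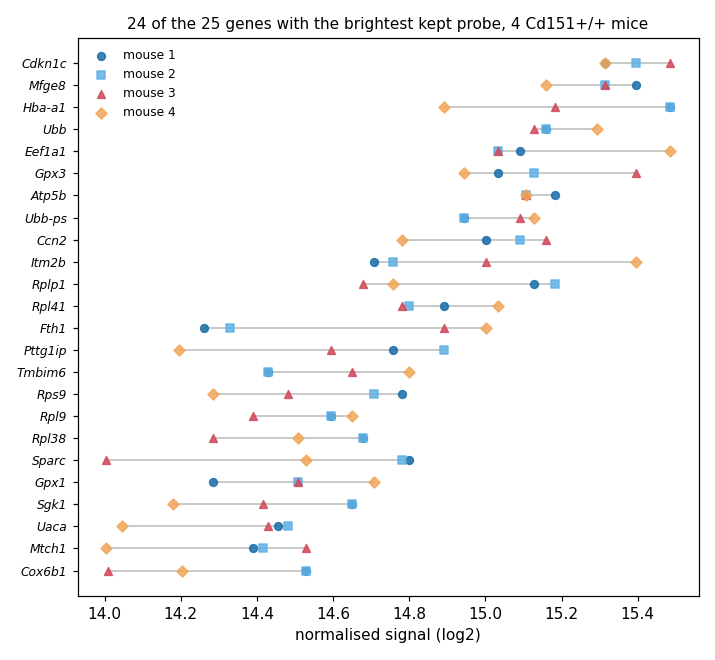
Log2 normalised signal (horizontal axis) of 24 of the 25 genes with the brightest kept probe, 1 row per gene and 1 point per mouse, with a grey line over the range. Cdkn1c and Mfge8 lie above 15 in all 4 mice, whereas Fth1 lies at 14.26 and 14.33 in mice 1 and 2 and at 14.89 and 15.002 in mice 3 and 4.

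The signal was spread over many probes. On the background-corrected linear scale the 20 brightest kept probes held 6.46%, 6.26%, 6.26% and 5.19% of all signal, and the 100 brightest held 18.3%, 17.4%, 17.5% and 16.4%. The 1000 brightest held 55.8% to 59.2%, and all kept probes 98.1% to 98.3%. The share of the leading 20 and of the leading 100 was lowest in mouse 4, the array with the most probes above 50000, whose part in this share was not tested.

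Of the 25 leading genes, the sequences before the start sites of Mfge8 and Hba-a1 are shown as examples, chosen because these genes rank next to each other and differ in the motifs named below. The 120 bases before the RefSeq start are printed 5′ to 3′ in the orientation of the gene (GRCm38.p6, Mfge8 at chr7:79149061-79149180 on the minus strand, Hba-a1 at chr11:32283552-32283671 on the plus strand). Capitals mark GGGCGG, the GC box, or its reverse complement CCGCCC, and would mark TATAAA, the TATA box, or TTTATA.
Mfge8: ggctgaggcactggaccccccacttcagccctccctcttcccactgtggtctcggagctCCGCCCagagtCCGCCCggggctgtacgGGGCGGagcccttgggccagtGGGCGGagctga
Hba-a1: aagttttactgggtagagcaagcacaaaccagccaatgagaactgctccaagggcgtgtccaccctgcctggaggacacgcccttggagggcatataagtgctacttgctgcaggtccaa
The Mfge8 stretch holds 4 GC boxes on the 2 strands, and the Hba-a1 stretch holds neither motif in these letters. Over 250 bases before the start and both strands, GGGCGG was found in 32.7% of all 32851 promoters in the RefSeq table, in 58.5% of the 7699 promoters of the genes kept here and in 51% of those of the 100 brightest genes. TATAAA was found in 12.4%, 6.33% and 11% of them. RefSeq promoters were matched for 5933 of the 7627 kept genes and for 78 of the 100 brightest.

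Podocyte genes were bright in every mouse. Of 27 podocyte genes with a probe, 18 were detected on all arrays, with a median percentile of 89.5 among kept genes (50 over all kept genes), and 9 lay in the top 10%. Beside Cdkn1c, the leading genes were Arhgap24, a regulator of small GTPases, at 14.00, 14.00, 13.59 and 13.79 and Ptpro, a receptor phosphatase of the foot process, at 13.30, 13.36, 12.73 and 13.07. Actn4, an actin crosslinker, read 13.41, 13.43, 12.44 and 12.61. The transcription factor Tcf21 lay at 11.89 to 12.55 and the sialoprotein Podxl at 11.30 to 12.02. The mean of the list was 11.42, 11.40, 11.32 and 11.24, an SD over mice of 0.082.

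Among podocyte genes, Wt1, the transcription factor that specifies the lineage, had the largest variance for its level. It read 9.02, 9.08, 10.76 and 10.44, so that mice 3 and 4 lay above mice 1 and 2 and the mice of a pair lay close together. Rhpn1, an effector of small GTPases, lay the other way on its brightest probe, at 12.41, 13.18, 11.88 and 11.71. On a dimmer Rhpn1 probe the pairs overlapped, at 10.40, 10.96, 10.67 and 9.27. Mice 3 and 4 both lay above mice 1 and 2 for 3 of the 18 genes and both below for 7, where the background over all kept probes was 27.9% above and 36.6% below. These counts, here and for the other lists, use the brightest probe of each gene. On that basis 26.7% of all kept genes lay above and 37.2% below. Of the 5 podocyte genes with more than 1 kept probe, 1 had probes that split in opposite ways. This was Vegfa, counted among the 7, whose probes differed between the pairs by -0.14 and 1.73. Cd2ap, Magi2, Kirrel and Foxc2 were detected on none of the arrays, and Nphs1, Synpo, Thsd7a and Myo1e have no probe. A missing signal is not missing expression: Actg1, Cfl1 and Gsn of the actin cytoskeleton, the chaperones Hsp90aa1 and Hspa5, Pcna and the ribosomal genes Rpl14 and Rpsa were also detected on no array, and are used by nearly every cell.

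**Figure D2:**
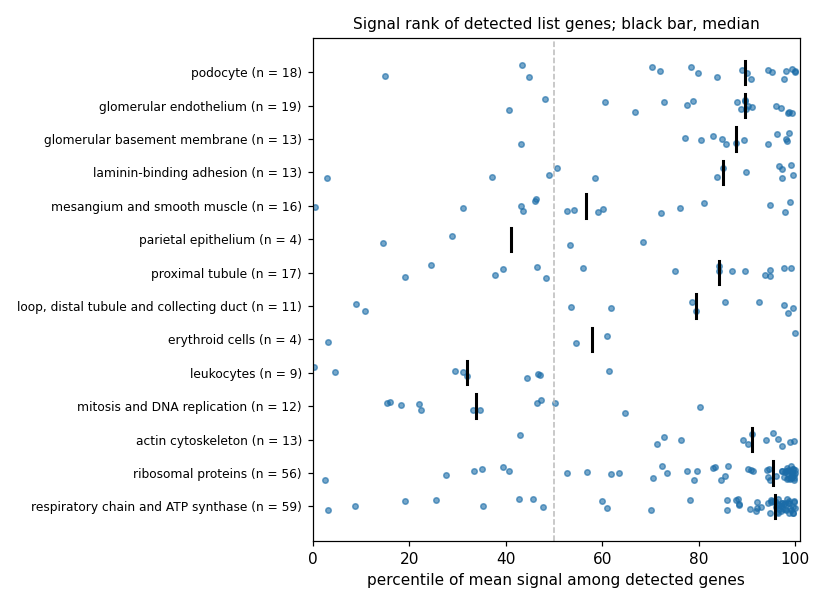
Percentile of the mean signal among the 7627 kept genes (horizontal axis) for the genes of 14 lists that were detected on all arrays, 1 point per gene, with a black bar at the median. Podocyte and endothelial medians lie at 89.5, the leukocyte median at 31.9 and that of mitosis and DNA replication at 33.9.

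The endothelium of the glomerular capillary was nearly as prominent. Of 28 genes, 19 were detected on all arrays, again with a median percentile of 89.5. Egfl7, a secreted angiogenic factor, read 14.18, 14.35, 13.81 and 13.29. The endothelial sialomucin Emcn read 13.17, 13.39, 13.64 and 13.54, and Ehd3, an endocytic protein enriched in glomerular capillaries, 13.66, 13.69, 12.97 and 12.99. The adhesion molecule Icam2 stood at 12.77, 13.26, 13.11 and 12.03, lowest in mouse 4. The largest variance for its level, 4.95 times that of probes of like brightness, was that of Ramp3, with Cdh5 next at nearly the same ratio. Ramp3, a receptor partner protein, read 10.74, 11.08, 10.48 and 9.40. The junction protein Cdh5 (10.80, 11.12, 9.60 and 9.87) and the receptor Tie1 (10.48, 10.73, 9.37 and 9.37) were lower in mice 3 and 4, while Flt1, a VEGF receptor, was not (8.86, 8.79, 10.06 and 9.17). In all, 10 of 19 endothelial genes lay lower in mice 3 and 4 (background 36.6%) and 6 lay higher (background 27.9%). The list mean was 11.19, 11.41, 11.20 and 10.93, so that mouse 2 minus mouse 1 (0.21) and mouse 4 minus mouse 3 (-0.27) were close in size to mice 3 and 4 minus mice 1 and 2 (-0.23). Gata5, S1pr1, Calcrl, Erg and Fabp4 were not detected on any array.

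Mesangial and smooth muscle genes had a lower median percentile, 56.7. Of 19 genes, 16 passed on all arrays. Acta2, smooth muscle actin, led at 13.80, 13.42, 13.56 and 13.39, followed by the matrix inhibitor of calcification Mgp (13.58, 13.04, 12.77 and 12.90) and the angiotensin receptor Agtr1a (12.10, 12.35, 11.998 and 12.33). Des, desmin, came next at 10.15 to 10.94. The groups of mice overlapped for these leading genes except Mgp, which lay lower in mice 3 and 4. Over all 16 genes, 8 lay lower in mice 3 and 4 (background 36.6%) and 2 lay higher (background 27.9%). The list mean was 9.71, 9.58, 9.34 and 9.34. Mice 3 and 4 minus mice 1 and 2 came to -0.30, against -0.13 for mouse 2 minus mouse 1 and 0.004 for mouse 4 minus mouse 3. The receptor Pdgfrb, which marks mesangial cells and pericytes, read 9.15, 9.58, 9.10 and 8.99. Mcam, an adhesion molecule of the vessel wall, had the largest variance for its level in the list (10.84, 10.73, 9.77 and 9.60). Cnn1 and Hopx were not detected. Of the renin cell genes, Ren2 read 12.22, 11.70, 12.18 and 12.57, and Akr1b7, a renin cell aldo-keto reductase, 8.56, 7.25, 8.65 and 9.39; both were lowest in mouse 2. Of the parietal epithelial genes 4 of 8 were detected on all arrays, none of them in the top 10%: Vcam1 (8.98 to 10.12), Cldn1 (8.38 to 9.36), Krt8 (6.51 to 8.47, the largest variance for its level of the 4) and Aldh1a2 (6.21 to 7.07). Pax2 and Cd24a were not detected.

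Basement membrane genes were led by chains of type IV collagen. Of 16 genes with a probe, 13 were detected on all arrays, at a median percentile of 87.6. The ubiquitous collagen chains Col4a1 (13.77, 13.54, 13.35 and 13.07) and Col4a2 (13.52, 13.72, 12.79 and 13.08) were the brightest. The heparan sulphate proteoglycan Agrn stood at 13.04, 13.04, 13.39 and 13.20 and Col18a1 at 12.37 to 13.01. The chains of the mature filter followed, with Col4a3 at 11.99 to 12.37, Col4a5 at 10.40 to 11.31 and Col4a4 at 10.31 to 10.79. Lamb2, the laminin beta chain of the mature membrane, read 12.09, 11.94, 10.96 and 10.88, whereas Lamb1, the chain of the immature membrane, was not detected on any array. Lama5 has no probe. Lamb2 had the largest variance for its level in the list. Of the 13 genes, 9 lay lower in mice 3 and 4 than in mice 1 and 2 (background 36.6%) and 1, Agrn, lay higher (background 27.9%); the list mean was 11.71, 11.72, 11.27 and 11.22. Mice 3 and 4 minus mice 1 and 2 came to -0.47, against 0.012 for mouse 2 minus mouse 1 and -0.053 for mouse 4 minus mouse 3. Proximal tubule markers, given below, moved the other way between the pairs, and their part in this difference was not tested.

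Cd151, which links laminin-binding integrins to membrane microdomains, was itself among the brightest genes, at rank 39 of 7627. It read 14.27, 14.17, 13.85 and 13.80. Its partner Itga3, the integrin alpha chain of the podocyte, stood at 10.89, 10.69, 11.14 and 10.71. Itgb1, the beta chain of that integrin, read 8.65, 8.86, 8.58 and 8.46, and Itgb4, of the hemidesmosome, 8.27, 7.83, 8.09 and 7.24. Itga6 and Lims1 were not detected on any array. The tetraspanins Cd63 (13.50, 13.45, 13.59 and 14.05) and Cd81 (12.35, 12.41, 13.76 and 12.999) and the focal adhesion protein Parva (12.55 to 13.09) were the other leading genes of the adhesion list. Vcl, vinculin, had the largest variance for its level at 7.97, 8.87, 10.30 and 9.28. Of the 16 genes 13 were detected on all arrays, 4 of them higher and 5 lower in mice 3 and 4, shares close to the background of 27.9% and 36.6%. The list mean was 10.66, 10.66, 10.93 and 10.61.

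Markers of tubule segments were present in all 4 isolates. The SD over mice of the list mean was 0.661 for the proximal tubule and 0.469 for the later segments, against 0.082 for podocytes, 0.195 for the endothelium and 0.183 for the mesangium. The 2 renin cell genes had an SD of 0.621. When arrays were matched at their 75th percentile, podocytes had an SD of 0.201, the endothelium 0.284 and the mesangium 0.253. The proximal tubule then had 0.587 and the later segments 0.408. The differences between these SDs were not tested. The proximal tubule reclaims most of the filtrate; 17 of 22 of its genes with a probe were detected on all arrays, at a median percentile of 84.2. The phosphate transporter Slc34a1 read 12.93, 13.09, 14.26 and 14.43. Miox, an oxygenase specific to the proximal tubule, read 12.12, 12.82, 13.22 and 13.87. Ass1, an enzyme of arginine synthesis, read 11.62, 11.85, 12.04 and 13.31, and the aspartic protease Napsa 11.71, 11.91, 12.22 and 12.97. All 4 genes were lowest in mouse 1 and highest in mouse 4. Slc34a1 had the largest variance for its level of the list. The list mean was 9.44, 9.94, 10.46 and 10.97, with steps of 0.50 between mice 1 and 2 and of 0.51 between mice 3 and 4, so mice differed within each pair of arrays as well as between the pairs. In 14 of 17 genes mice 3 and 4 lay above mice 1 and 2 (background 27.9%), and in 1, Cyp4b1, both lay below. Of the 17 genes, 11 (64.7%) had an unadjusted p of 0.05 or lower in the variance test described further on, where 4.17% of all kept genes did and no gene passed after adjustment. The list held 0.305%, 0.386%, 0.551% and 0.883% of the background-corrected signal. Lrp2, Pck1, Gatm and Slc7a13 were not detected on any array, although Lrp2, megalin, and Gatm are abundant in this segment.

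**Figure D3:**
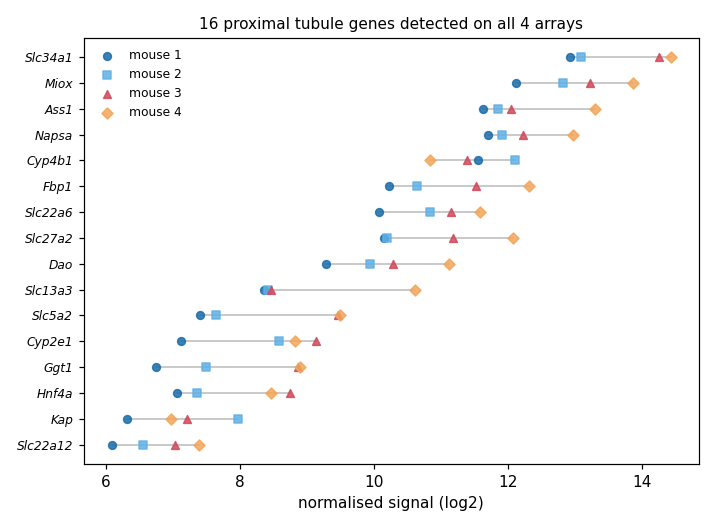
Log2 normalised signal (horizontal axis) of 16 of the 17 proximal tubule genes detected on all arrays, 1 row per gene and 1 point per mouse, with a grey line over the range. Mouse 4 is highest for Slc34a1, Miox, Ass1 and Napsa, whereas Cyp4b1 is lowest in mouse 4 at 10.84.

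Members of the list were not uniform. Slc13a3, a dicarboxylate transporter, read 8.36, 8.41, 8.46 and 10.61, so that mouse 4 stood apart. Slc5a2, the glucose transporter of the early segment, instead split by pair (7.40, 7.64, 9.47 and 9.49). Kap, an androgen-regulated kidney protein, was highest in mouse 2 (6.32, 7.97, 7.203 and 6.96), and Cyp2e1 was lowest in mouse 1 (7.11, 8.58, 9.13 and 8.82).

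The upstream sequences of Slc34a1 and Miox are shown because these genes led the list and followed the same order of mice. The 120 bases before the RefSeq start are given as above (GRCm38.p6, chr13:55399528-55399647 and chr15:89334353-89334472, both on the plus strand). Capitals mark GTTAAT, the half-site of the tubule and liver factor HNF1, or its reverse complement ATTAAC, and TATAAA.
Slc34a1: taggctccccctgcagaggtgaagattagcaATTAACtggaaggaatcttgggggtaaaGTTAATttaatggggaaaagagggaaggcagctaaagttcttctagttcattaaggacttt
Miox: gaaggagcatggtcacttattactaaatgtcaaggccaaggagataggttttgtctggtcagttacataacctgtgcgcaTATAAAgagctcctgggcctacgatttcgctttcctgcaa
The Slc34a1 stretch holds 1 half-site on each strand, and Miox holds a TATA box. Of 20 promoters matched to 14 of the 17 proximal tubule genes, 4 (20%) hold GTTAAT on either strand within 250 bases and 4 (20%) hold TATAAA. The half-site was found in 6.43% of all promoters in the table and in 4.21% of those of kept genes, and in 1 of 14 podocyte promoters, where TATAAA was found in 0. A match of letters is a description and not a binding site.

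The brightest genes of the segments beyond the proximal tubule did not follow the proximal order. Umod, uromodulin of the thick ascending limb, read 14.42, 13.75, 13.37 and 14.39, at rank 43 of all genes. Slc12a1, the salt cotransporter of the same limb, read 13.51, 12.51, 12.44 and 13.41. On these probes mice 1 and 4 were thus higher than mice 2 and 3 for Umod and Slc12a1, and the pairs of arrays overlapped. Pvalb, of the distal convoluted tubule, stood at 11.47 to 12.35. Scnn1a, a sodium channel subunit, had the largest variance for its level (9.99, 9.12, 7.87 and 10.19). The list mean was 10.61, 9.91, 10.18 and 10.98, with 11 of 20 genes detected on all arrays. Of the 11, 5 lay higher in mice 3 and 4 (background 27.9%), Pvalb among them, and 0 lower (background 36.6%), and 4 (36.4%) had an unadjusted p of 0.05 or lower, where 4.17% of all kept genes did. Calb1, Foxi1, Kcnj1 and Avpr2 were not detected.

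**Figure D4:**
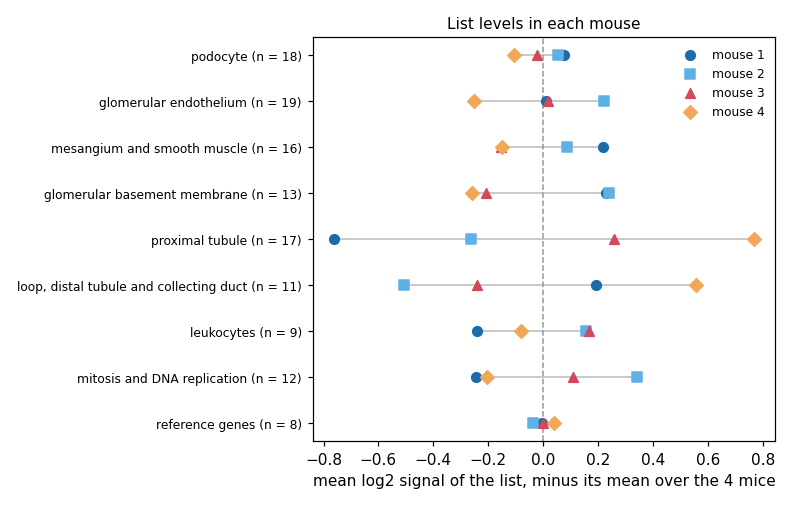
Mean log2 signal of 9 lists in each mouse minus the mean over the 4 mice (horizontal axis), 1 row per list and 1 point per mouse, with the number of genes in brackets. The proximal tubule spans from 9.44 to 10.97 before centring, the podocyte list from 11.24 to 11.42 and the reference genes from 12.29 to 12.37.

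Blood cell genes other than haemoglobin were of middle to low brightness. Beside Hba-a1, the erythroid genes Alas2 (8.76, 9.42, 8.90 and 9.93) and Slc4a1 (8.82, 8.84, 8.66 and 9.17) were detected on all arrays, whereas Hbb-b1, Epb42 and Rhag were not detected. Of the 4 erythroid genes detected on all arrays Alas2 had the largest variance for its level. Leukocyte genes were dim. Of 23, 9 (39.1%) were detected on all arrays, a share close to the 42.7% of all genes. Their median percentile was 31.9, with none in the top 10%. Lyz2, lysozyme of myeloid cells, read 9.03, 9.41, 9.49 and 9.16. Cd74 (7.91 to 9.18), Laptm5 (7.80 to 9.25) and Coro1a (8.11 to 8.50) came next, and S100a8, a neutrophil protein, had the largest variance for its level (6.41, 7.38, 7.39 and 8.47). The defining markers Ptprc, Adgre1, Itgam and Cd79a were not detected on any array. None of 11 genes of liver, muscle, fat and adrenal was detected on all arrays; Alb, Apoa1, Ckm and Acta1 were detected on none, and Ttr and Cyp17a1 on 1 each. For the sex of the mice, the Y-linked Ddx3y read 11.68, 11.52, 11.42 and 10.89 whereas Xist, Eif2s3y and Kdm5d were detected on no array.

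Genes of dividing cells were also dim. Of 18 genes of mitosis and DNA replication, 12 passed, at a median percentile of 33.9. The helicase subunits Mcm4 (10.45, 10.50, 10.67 and 10.57) and Mcm5 (9.07 to 9.80) led. The mitotic genes Cdc20 (8.36, 9.42, 9.08 and 7.62) and Birc5 (8.31, 9.35, 8.67 and 7.45) were highest in mouse 2, and Plk1, with the largest variance for its level, in mouse 3 (5.93, 6.95, 7.68 and 5.74). Ccnb1, Ccnb2, Bub1 and Pcna were not detected. The list mean was 7.64, 8.23, 8.00 and 7.68.

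Genes of the general machinery were bright. Ribosomal protein genes, 56 of 63 detected on all arrays, had a median percentile of 95.3, led by Rplp1, Rpl41, Rps9 and Rpl9 at means of 14.56 to 14.94. They held 4.51%, 4.33%, 4.64% and 4.44% of the signal. Rpl5 had the largest variance for its level (8.80, 8.88, 11.17 and 11.01), and 31 of the 56 lay higher in mice 3 and 4 (background 27.9%) against 14 lower (background 36.6%). Of the 7 ribosomal genes with more than 1 kept probe, 2 had probes that split in opposite ways. The list mean of mice 3 and 4 minus mice 1 and 2 was 0.39, against -0.025 for mouse 2 minus mouse 1 and -0.059 for mouse 4 minus mouse 3. Rpl14, Rpl17, Rpl6 and Rplp2 were not detected. Subunits of the respiratory chain and ATP synthase, 59 of 79 detected, had a median percentile of 95.9. Atp5b was the steadiest of their leading genes at 15.18, 15.11, 15.11 and 15.11, with Cox6b1, Uqcr10 and Cox6a1 next, and Cox5a had the largest variance for its level (11.28, 11.32, 12.23 and 12.84). Atp5e, Atp5k, Atp5md and Cox7b were not detected. Of these 59 genes 33 lay higher in mice 3 and 4 (background 27.9%) and 7 lower (background 36.6%). The list mean was 11.63, 11.51, 11.82 and 12.10, and so differed between mice 3 and 4 by 0.28. Probes of both families can also read processed copies of their genes.

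The mean of the 8 detected reference genes was 12.32, 12.29, 12.33 and 12.37, an SD over mice of 0.032. Gapdh read 13.60, 13.60, 13.55 and 14.03 and Gusb 11.21, 11.12, 11.18 and 10.91, these being genes that the study used to normalise its real-time PCR. Actb (13.90 to 14.76, the largest variance for its level) and Ppia (14.02 to 14.60) were also among the leading genes. For the actin cytoskeleton 13 of 16 genes were detected on all arrays at a median percentile of 91.1, and Tmsb10 (13.25 to 13.77), Tmsb4x (12.80 to 12.99) and Tpm1 (12.38 to 12.89) followed Actb. Arpc1b, of the branching complex, had the largest variance for its level there (11.99, 12.12, 10.91 and 10.78), but its other probes went the opposite way, at 7.49, 7.54, 8.63 and 7.95 and at 6.72, 6.59, 8.00 and 7.42.

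Immediate early genes, which cells switch on within minutes of a stimulus, were bright in every isolate. Of 18, 13 were detected on all arrays at a median percentile of 89.7. Zfp36, an RNA-decay factor, read 13.96, 13.89, 12.98 and 13.76. Ier3 (12.41 to 13.23), Dusp1 (12.24, 12.17, 13.45 and 12.86) and Junb (13.11, 12.71, 11.67 and 12.73) were next. Fos stood at 9.89, 9.43, 10.60 and 11.52, with the largest variance for its level, and was highest in mouse 4. Ier2, Nr4a1, Btg2 and Myc were not detected. Among chaperones 9 of 13 were detected. Hspa8 read 13.47, 12.99, 14.27 and 13.89 and Hsp90ab1 12.79 to 13.63, ahead of Dnajb1 (10.84 to 11.69) and Cryab (10.88 to 11.04). The inducible Hspa1a had the largest variance for its level (11.03, 9.86, 8.72 and 9.55) and was highest in mouse 1. Dnaja1 and Hspa4 were among the undetected.

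A test asked which probes vary more between the mice than probes of like brightness. The SD over mice had a median of 0.347 log2 units, and was 0.348 among the 1990 dimmest and 0.275 among the 1989 brightest probes. In the limma fit no probe was called (0 of 9946, 0%): the smallest adjusted p was 0.637. At an unadjusted p of 0.05 or lower there were 412 probes (4.14%), in 386 genes. The count depended on which mice entered: without mouse 2, 10 probes were called and 624 lay at an unadjusted p of 0.05 or lower, and without mouse 1 a single probe, for Actb, was called. The 10 were those for Actb, Fth1, Sdc4, Spink1, Cyp4a14, Ces3, Thsd4, G6pc, Bdh2 and Acadm.

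The variance lay mainly between the pairs of arrays. Over kept probes a median of 64.8% of the sum of squares lay between mice 1 and 2 and mice 3 and 4. Both mice 3 and 4 were above both mice 1 and 2 in 2777 probes (27.9%) and below in 3642 (36.6%), and the pairs overlapped in 3527 (35.5%). When arrays were instead matched at their 75th percentile, these counts became 2295 and 4405, and the median difference between the pairs moved from -0.10 to -0.22. The 100 probes with the largest variance for their level split differently from the rest: 82 lay above, 9 below and 9 overlapped. Of the 412 probes at an unadjusted p of 0.05 or lower, 296 lay above and 75 below.

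The genes with the largest variance for their level, named here after their values were seen, split mostly by pair. Sdc4, a cell surface proteoglycan, read 7.06, 7.43, 10.24 and 10.07. Spink1, a trypsin inhibitor, read 8.90, 9.53, 11.31 and 11.90, and the mitochondrial protein Chchd10 9.59, 9.26, 11.83 and 11.63. G6pc, the glucose-6-phosphatase of the proximal tubule and liver, read 10.61, 10.92, 11.99 and 13.15. In all 4 both members of the brighter pair were above both members of the dimmer pair. The other pattern was a single mouse apart. Cyp4a14, a fatty acid hydroxylase, stood at 7.83, 7.60, 7.94 and 10.94. Dbp, an output factor of the circadian clock, read 13.27, 11.03, 12.84 and 13.06, low in mouse 2.

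Separate probes of 1 gene repeat the measurement of the same RNA, and did not always agree. Over 2944 pairs of kept probes in 1784 genes, the deviations from the probe mean correlated at r = 0.43 across probes and mice, which are not independent points. Where both probes had an SD of 0.5 or more, 297 pairs in 219 genes, r was 0.79. Of these, 206 pairs split the same way between the pairs of arrays and 12 in opposite ways. Over all 2944 pairs these numbers were 940 and 357. The 297 pairs were chosen by the size of the same deviations, so their r and their split are given as a description. The probes of Actb differed. Its brightest probe read 14.27, 14.24, 14.76 and 13.90, but another read 10.51, 10.52, 14.80 and 14.12. Fth1 had 1 probe at 14.26, 14.33, 14.89 and 15.002 and another at 10.78, 10.89, 13.19 and 13.04. For Cd151 the brightest probe was lower in mice 3 and 4, whereas another read 11.32, 11.34, 11.74 and 12.07 and the last 11.00, 10.88, 11.75 and 12.10, both higher there. No direction between the pairs of arrays can therefore be given for Cd151, nor for Arpc1b, Coro1a, Hsp90ab1, Rps9, Tmsb10 or Vegfa, whose probes also split in opposite ways.

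**Figure D5:**
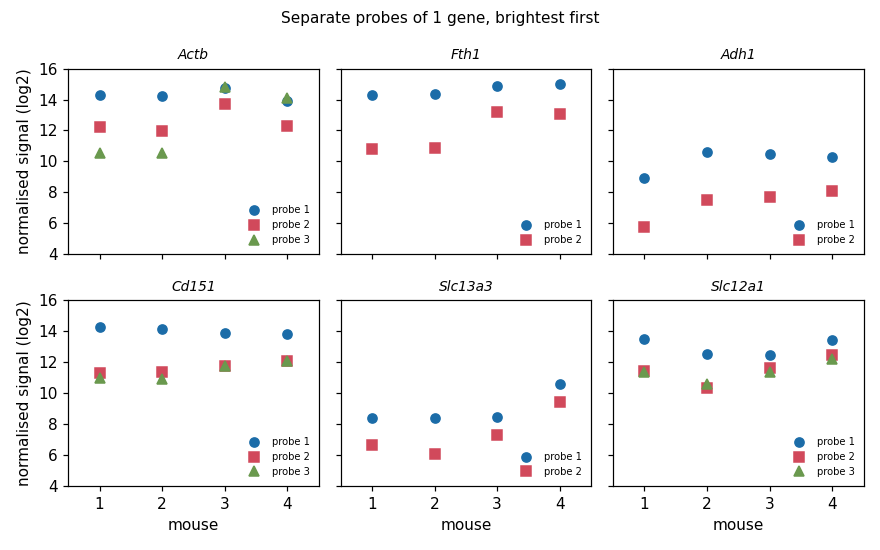
Log2 normalised signal (vertical axis) in mice 1 to 4 (horizontal axis) of each kept probe of 6 genes, 1 colour per probe. The dimmest Actb probe is at 10.51 and 10.52 in mice 1 and 2 and at 14.80 and 14.12 in mice 3 and 4, whereas both Slc13a3 probes are highest in mouse 4, at 10.61 and 9.40.

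Several differences of a single mouse were seen on more than 1 probe. Slc13a3 stood highest in mouse 4 on both probes, the dimmer one reading 6.65, 6.09, 7.28 and 9.40. The alcohol dehydrogenase Adh1 was lowest in mouse 1 on both, at 8.93, 10.60, 10.50 and 10.29 and at 5.75, 7.53, 7.73 and 8.10. Slc12a1 was lowest in mouse 2 on 2 of its 3 probes (11.41, 10.32, 11.64 and 12.44; 11.35, 10.55, 11.34 and 12.22), and in mouse 3 on the brightest. By a gap of 1 log2 unit or more to the nearest of the others, mouse 1 stood apart in 14 probes upwards and 10 downwards, mouse 2 in 12 and 13, mouse 3 in 57 and 32, and mouse 4 in 80 and 45. The totals depended on the background setting. Without the background correction by normexp they fell from 24, 25, 89 and 125 in mice 1 to 4 to 8, 9, 23 and 54.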

How the data were processed

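Total RNA of 8 glomerular isolates was amplified, labelled with biotin and hybridised to MouseRef-8 v1.1 BeadChips; the 4 Cd151+/+ arrays were used here. The deposited table holds a signal intensity per probe and array, which the authors exported without background subtraction or normalisation (GenomeStudio is named in the submitters' processing notes), and a detection p-value that the authors' software set against negative control beads in steps of 1 in 798. Of 18120 listed symbols, 17240 were matched to current mouse symbols in the RefSeq table of GRCm38.p6 (5204 of them through a synonym). 14 symbols had been turned into dates and were left as they stood.

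The intensities were background-corrected by normexp with the background inferred from the detection p-values (offset 16), quantile normalised over the 4 arrays and put on the log2 scale (limma 3.58.1, R 4.3.3). Probes were kept at a detection p-value of at most 0.05 on each array. The variance of each probe over the 4 mice was divided by the trended prior variance of limma's robust empirical Bayes fit at its level, tested against the upper tail of the F distribution and adjusted by Benjamini-Hochberg over all kept probes. On simulated data this test called mainly large excesses of variance, so a probe that was not called is not shown to vary like the others. No genotypes were compared, and the brief comparison of array sets in the closing section used the other 4 arrays normalised with these. For genes with several probes the brightest kept probe is given.

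Named genes were the 25 brightest, of each list the 4 brightest, the one with the largest variance for its level and up to 4 undetected members, the partners of Cd151, and Gapdh and Gusb; some of the genes this rule names are not reported here. The members and lists were chosen with earlier results of these data known, and the clock and sterol lists were added after the values were seen. Alternatives were no normexp, a re-implemented cubic spline (the method the authors used), scaling to a common 75th percentile, an offset of 50, all 8 arrays normalised together, other detection filters, other forms of the prior variance, the array pair as a block, and each mouse left out. Comparisons of pairs and single mice under other normalisations were added later. The number of arrays limits the precision.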

Additional observations from a re-analysis of the deposited data

Results flagged for a closer look

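In 107 named probes and 21 list means, the mouse farthest from the others was compared with Dixon's critical value for 4 samples. Chance alone passes about 1 group in 20 where the 4 values are independent and normally distributed. These arrays fell into 2 pairs, so that rate is only a guide here. Of the probes 5 passed, and of the lists 2. The sterol list was drawn up after its values were seen, so that its passing is not evidence of a difference. Its mean was 9.66 in mouse 4 and 8.55 to 8.60 in the others. The adhesion list stood at 10.93 in mouse 3 and at 10.61 to 10.66 in the others. Gapdh read 14.03 in mouse 4 against 13.55 to 13.60, and Eef1a1 15.49 in mouse 4 against 15.03 to 15.09. Uaca read 14.05 in mouse 4 against 14.43 to 14.48, and Tmsb4x 12.99 against 12.80 to 12.83. Atp5b read 15.18 in mouse 1 and 15.11 in each of the others. This is a small step in rank among the brightest probes.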

How the results depend on the processing

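No paired analysis was possible because the values come from 1 group of mice and no groups were tested against each other. The number of kept probes stayed within 1.5 times of 9946 under every filter and with each mouse left out. No normalisation gave a called probe. Calls appeared when single mice were left out (0 to 10 called; 296 to 624 at an unadjusted p of 0.05 or lower, and the highest value of both without mouse 2) and with probes detected on at least 1 array (1 called, 737 at an unadjusted p of 0.05 or lower). Without normexp the 100 brightest probes held 14.6% of the signal, since the background then counts as signal. The median percentile of podocyte genes was 88.7 with a detection p of 0.01. Scaling to the 75th percentile moved the podocyte difference between the pairs of arrays to -0.31 from -0.13 and the SD over mice of its list mean to 0.201 from 0.082, and turned the sign of the small list differences of leukocytes, chaperones, laminin-binding adhesion, reference genes and the clock, and, among list genes whose pairs did not overlap, of Mcm4, Rpl37, Rps24 and Uqcr10; the proximal tubule difference was 0.91 that of the basement membrane -0.63 that of the ribosomal proteins 0.24 (from 0.39), that of the respiratory chain 0.23 (from 0.39) and that of the endothelium -0.38 (from -0.23) under it. Of the 100 brightest genes 93 to 100 were shared with each alternative. The numbers of probes with 1 mouse apart fell from 24, 25, 89 and 125 in mice 1 to 4 to 8, 9, 23 and 54 without normexp, as that setting leaves the background in dim probes, and to 15, 11, 38 and 79 with an offset of 50. The cause of the other changes was not tested. Signal over background limits what can be said of genes that were not detected.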

Other observations

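Clock and sterol genes, listed after their values were seen, differed between single mice. Of 18 clock genes 11 were detected on all arrays, and 10 of the 11 overlapped between the pairs of arrays (35.5% of all kept probes did). Their median SD over mice was 0.76, against 0.34 over all kept genes. Because of how the list was chosen, neither this SD nor the overlap is evidence of a difference. Nr1d1, a repressor of the clock, read 10.63, 8.74, 9.66 and 8.72 in mice 1 to 4, highest in mouse 1 on both of its probes. Ciart, another clock repressor, read 9.19, 6.93, 6.54 and 8.07, and Per3 6.66, 5.47, 5.63 and 7.53. Nfil3, which represses targets of Dbp, lay the other way from Dbp at 8.03, 9.76, 8.99 and 8.41, highest in mouse 2, where Dbp was lowest. The time of day of collection was not analysed here. Of the sterol genes 11 of 16 were detected on all arrays, with list means of 8.60, 8.55, 8.59 and 9.66. The synthesis enzymes Msmo1 (7.55, 7.40, 8.12 and 9.54), Lss (6.20, 6.02, 5.79 and 7.58) and Sqle (9.37, 9.15, 8.66 and 10.30) were highest in mouse 4.

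Other genes with 1 mouse apart, also chosen after the fact, were of several kinds. In mouse 4 the fatty acid enzyme Acot3 read 8.84 against 6.68 to 6.87, and the transferrin receptor Tfrc 9.43 on 1 probe and 10.32 on the other, highest on both. In mouse 2 the mitotic kinesins Kif18b (5.80, 7.69, 5.80 and 5.604), Kif23 (6.59, 7.97, 6.75 and 5.87) and Kif4 (5.84, 7.00, 5.69 and 5.65) and the checkpoint kinase Bub1b (5.40, 6.98, 5.82 and 5.16) were highest. In mouse 3 the histone genes H2ac15 (8.40, 8.76, 10.35 and 7.99), H2ac10 (6.56, 7.06, 8.85 and 7.27) and H2ac7 (9.07, 9.30, 10.51 and 8.48) were highest, and these near-identical genes can share signal. In mouse 1 the tight junction gene Cldn11 read 7.76 against 5.49 to 6.22.

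The other 4 arrays of the series, normalised together with these, also fell into 2 of higher and 2 of lower background. Across the 9946 kept probes, the difference between higher and lower background there correlated with the difference between mice 3 and 4 and mice 1 and 2 at r = 0.69, and over the 412 probes at an unadjusted p of 0.05 or lower at r = 0.76; both sets of arrays share the probes and their sequences, and r is given as a description. The dimmest Actb probe read 14.75 and 15.24 on the 2 arrays of higher background and 10.14 and 12.87 on the 2 of lower. The ribosomal list differed by 0.41 there and by 0.39 in the wild-type mice. The proximal tubule list did not follow: it differed by -0.40 there, where it read 11.23 and 10.54 against 10.47 and 12.10, and by 1.03 in the wild-type mice. The basement membrane list differed by -0.32 there and by -0.47 in the wild-type mice, the respiratory list by 0.078 and 0.39, the podocyte list by 0.26 and -0.13, and the endothelial list by 0.095 and -0.23.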
